A study of Saccharomyces cerevisiae YPS1009 with 8 samples.

Results

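The 10 histone genes of Saccharomyces cerevisiae were followed by ribosome profiling in the haploid oak-soil strain YPS1009. They were taken by systematic name from the 6532 named gene rows of the count tables, and all 10 were present. The 8 core genes encode H2A (HTA1, YDR225W, and HTA2, YBL003C), H2B (HTB1, YDR224C, and HTB2, YBL002W), H3 (HHT1, YBR010W, and HHT2, YNL031C) and H4 (HHF1, YBR009C, and HHF2, YNL030W). The other 2 encode the H2A variant H2A.Z (HTZ1, YOL012C) and the linker histone H1 (HHO1, YPL127C).

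All strains were haploid derivatives of YPS1009 grown in rich YPD medium at 30 °C from an OD600 of 0.05. The euploid strain was compared with Chr12, a strain that carries an additional copy of chromosome XII, and no histone gene lies on that chromosome by its systematic name. Cells were collected in log phase, after 3 generations, or on day 4 of culture in stationary phase. The 4 groups were euploid log phase, Chr12 log phase, euploid day 4 and Chr12 day 4, each with 2 libraries described by the submitters as biological duplicates, so that n = 2 per group unless given otherwise.

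Core histones package DNA into nucleosomes and are mostly made in S phase, when newly copied DNA needs them, so their synthesis falls when cells stop dividing. In this yeast each core histone is encoded by a pair of genes that lie in divergent couples: HTA1 with HTB1, HTA2 with HTB2, HHT1 with HHF1 and HHT2 with HHF2. H2A.Z replaces H2A in nucleosomes near promoters through the SWR1 complex, and H1 binds linker DNA. In animals H2A.Z is known to be made outside S phase too.

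The libraries held from 211302 reads (euploid day 4, replicate 1) to 6215498 reads (euploid day 4, replicate 2), and Chr12 day 4 replicate 1 held 396306. The log phase libraries held from 1455211 to 2354539. All 10 histone genes passed the filter on low counts and were among the 5794 genes tested. All 8 stationary phase marker genes, among them HSP12 and SPG4, were called higher on day 4 in both strains, and 5 of the 6 growth markers present in the tables, among them the ribosomal protein gene RPP0, were called lower in both, so that the phase labels matched their markers. Between the strains on day 4 none of these markers was called. All 8 stationary phase markers stood lower in Chr12 than in the euploid (median log2 fold change -1.73), and 1 of the 6 growth markers did (median 0.53). Values below are CPM, footprint counts scaled to a common library size after TMM normalisation, and are relative within a library. Fewer cells that make a protein and fewer footprints per cell cannot be told apart in bulk libraries, and neither can a change in mRNA from a change in its translation.

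The genes did not move together. On day 4 HTB2, HTA2, HHF1 and HHF2 were lower than in log phase, HTB2 the most by fitted fold in both strains, while HTA1, HTB1, HHT1, HHT2, HTZ1 and HHO1 did not pass the test in either strain. By edgeR's quasi-likelihood test at an adjusted p of 0.05 (Benjamini-Hochberg over all genes), 4 of the 10 genes were called lower in the euploid, against 11.6% of all tested genes, and 3 of 10 in Chr12, against 9.67%. None was called higher, against 15.6% and 13.2% of all tested genes. The median log2 fold change of the 8 core genes was -1.29 in the euploid and -1.15 in Chr12, beside medians of 0.39 and 0.25 over all tested genes.

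**Figure D1:**
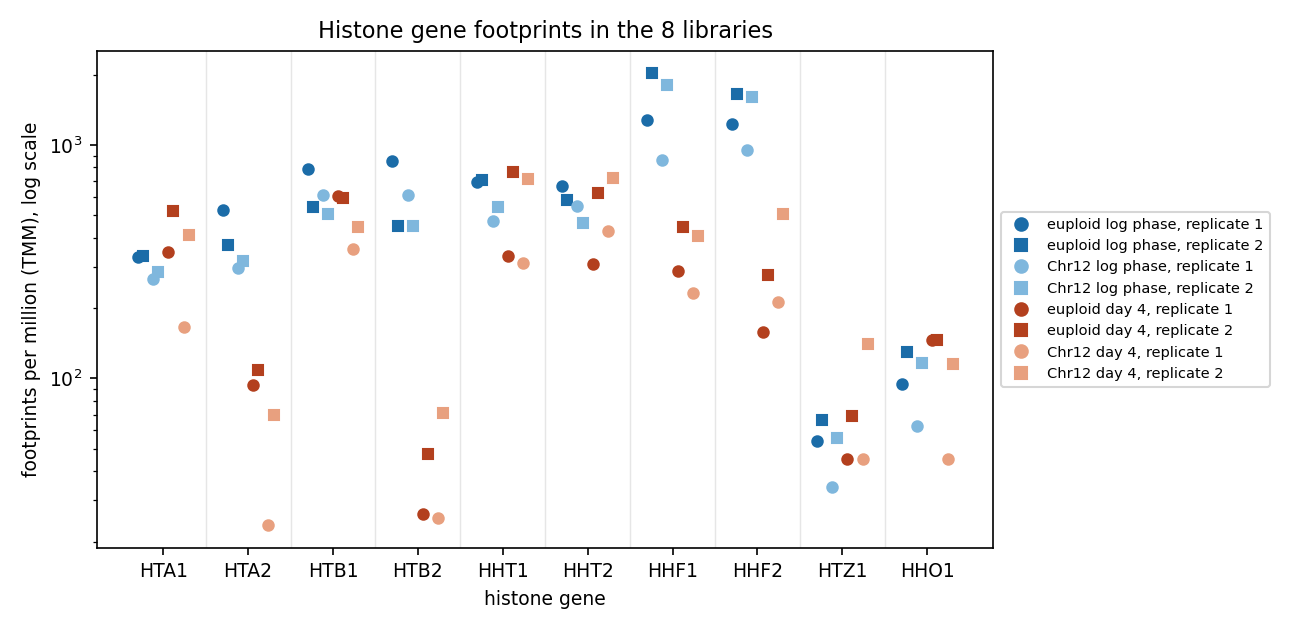
CPM (log axis) of each histone gene in each of the 8 libraries, with colours for the 4 groups, circles for replicate 1 and squares for replicate 2. The day 4 points of HTA2, HTB2, HHF1 and HHF2 lie below all their log phase points, and those of the other 6 genes overlap.

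HTB2 encodes H2B. It held 854 and 451 CPM in the euploid log phase libraries and 610 and 447 CPM in the Chr12 log phase libraries. On day 4 it held 26.3 and 47.6 CPM in the euploid and 25.3 and 70.9 CPM in Chr12. The highest day 4 library was thus well under the lowest log phase library. The fit put HTB2 at -4.08 ± 0.70 (log2, SE) in the euploid (16.9-fold lower, adjusted p = 0.00514) and at -3.42 ± 0.67 in Chr12 (10.7-fold lower, adjusted p = 0.011). The day 4 values rest on 7, 295, 14 and 183 reads. The ratio was larger in replicate 1 in both strains, where the day 4 library was the shallower and the log phase CPM the higher. The log2 ratio of same-numbered libraries was -5.02 and -3.24 in the euploid and -4.59 and -2.66 in Chr12. With at most 1 read counted per position HTB2 was still called, at -2.23 and -1.79. In the euploid the call held without any single library. In Chr12 it was lost without either log phase library or without day 4 replicate 1, with log2 changes that stayed between -4.38 and -2.89 over the libraries left out.

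HTB1, the other H2B gene, did not follow. It held 786 and 540 CPM in euploid log phase, 610 and 504 CPM in Chr12 log phase, 601 and 590 CPM on euploid day 4 and 358 and 445 CPM on Chr12 day 4. The euploid groups overlapped. The 2 Chr12 day 4 libraries were below the 2 Chr12 log phase libraries. The fitted changes were -0.15 ± 0.43 (adjusted p = 0.823) and -0.47 ± 0.43 (adjusted p = 0.493).

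HTA2 encodes H2A and shares a divergent promoter with HTB2. Its log phase libraries held 526 and 374 CPM in the euploid and 296 and 318 CPM in Chr12. Its day 4 libraries held 93.9 and 108 CPM in the euploid and 23.5 and 69.7 CPM in Chr12. All 4 day 4 libraries were below all 4 log phase libraries, with 13 reads in the lowest. HTA2 fell by 2.15 ± 0.57 on the log2 scale in the euploid (4.43-fold, adjusted p = 0.0268) and fell by 2.68 ± 0.58 in Chr12 (6.42-fold, adjusted p = 0.0153). The call was lost without any of 6 libraries in the euploid comparison, all but the 2 Chr12 day 4 libraries. In Chr12 it was lost without either Chr12 log phase library or without Chr12 day 4 replicate 1. The log2 change stayed between -3.70 and -1.88 over the libraries left out.

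HTA1, the other H2A gene, held 332 and 334 CPM in the euploid and 265 and 285 CPM in Chr12 in log phase. On day 4 it held 349 and 522 CPM in the euploid and 166 and 412 CPM in Chr12. Both euploid day 4 libraries were above both euploid log phase libraries, and the Chr12 day 4 libraries lay on either side of the log phase range. The fitted changes were 0.39 ± 0.53 (adjusted p = 0.629) and 0.08 ± 0.52 (adjusted p = 0.94), the second of which was -0.08 with RLE size factors, a scaling that moved the median of all genes by -0.15 in the euploid and -0.17 in Chr12.

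**Figure D2:**
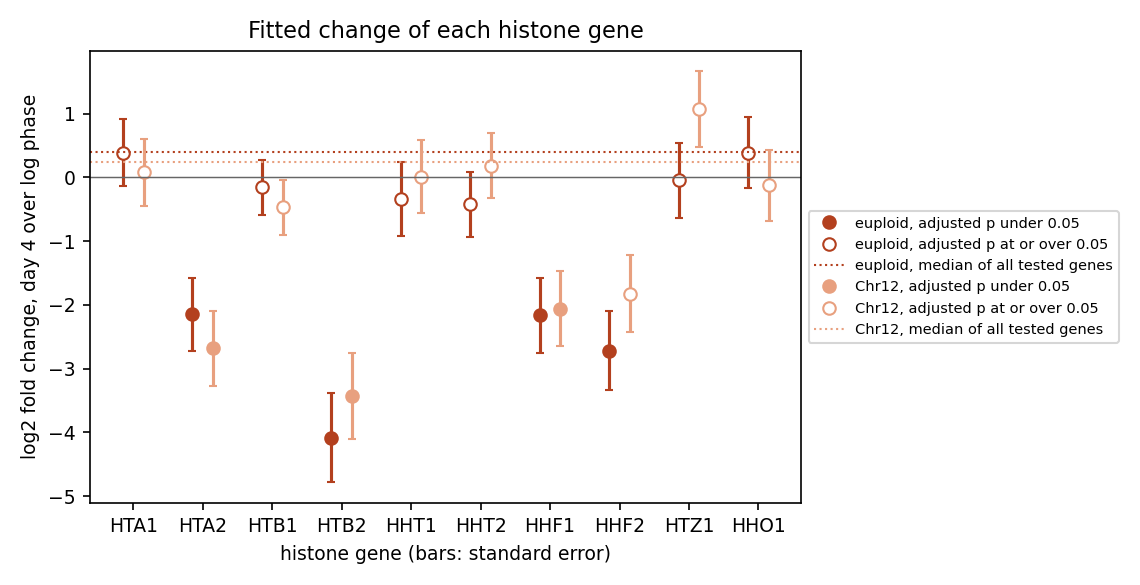
Fitted log2 fold change, day 4 over log phase, of each histone gene in the euploid and in Chr12, with standard errors as bars. Filled points passed an adjusted p of 0.05, and dotted lines are the medians of all tested genes (0.39 and 0.25).

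Within the H2A and H2B pairs the balance of the copies moved from near even to mostly 1 copy. HTA1 took 38.8% and 47.3% of the H2A footprints per nucleotide in euploid log phase and 47.3% in both Chr12 log phase libraries. On day 4 its share was 78.8% and 82.9% in the euploid and 87.6% and 85.5% in Chr12. HTB1 took 47.9% and 54.4% of the H2B footprints in log phase euploid libraries, 49.95% and 52.96% in those of Chr12, 95.8% and 92.5% on euploid day 4 and 93.4% and 86.2% on Chr12 day 4. No day 4 library overlapped the log phase range in either pair. Over both strains the share of HTA1 went from 45.2% ± 4.26 (SD, n = 4) to 83.7% ± 3.79 (n = 4), and that of HTB1 from 51.3% ± 2.94 to 91.99% ± 4.08 (n = 4). Each gave p = 0.0286 by an exact two-sided permutation test of 4 against 4 libraries, the smallest this design allows, and p = 0.0476 adjusted over the 5 shares tested. The adjusted p of both was 0.0714 without any of the 4 log phase libraries, over the gene body or with at most 1 read per position, settings in which the exact p of each stayed at 0.0286 and that of the HTZ1 share rose.

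The copies of a core histone encode the same or closely similar proteins, so some reads may match both. Where the copies differ was not computed, how reads that match both were placed is not given in the sources used here, and the part of read placement in the shares was not tested. The shares are also given in 3 segments of equal length of the coding sequence. HTA1 took 35.1% to 44.9% of the pair's reads in the 5′ segment, 41.3% to 59.03% in the middle segment and 47.6% to 53.1% in the 3′ segment of the log phase libraries. On day 4 it took 71.2% to 76.1%, 88.5% to 95.2% and 88.4% to 96.2%. HTB1 took 54.99% to 66.7%, 24.3% to 36.9% and 58.7% to 67.7% of the pair's reads in the same segments in log phase, and 87.8% to 97.1%, 84.1% to 100% and 84.4% to 95.6% on day 4. In no segment of either pair did log phase and day 4 libraries overlap.

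**Figure D3:**
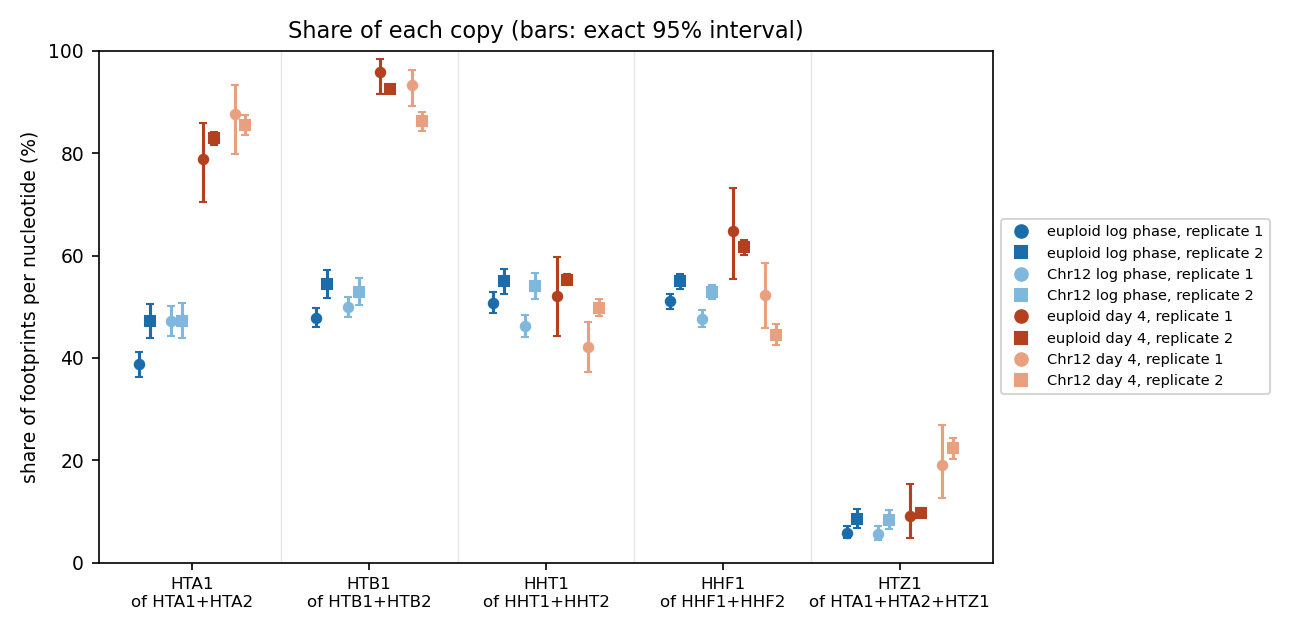
Share of 1 copy in the footprints of its pair, in percent of footprints per nucleotide, in each library, with exact 95% binomial intervals that cover counting error only. HTA1 and HTB1 lie from 38.8% to 54.4% in log phase and from 78.8% to 95.8% on day 4, and HHT1 and HHF1 stay between 42.1% and 64.7%.

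With both copies summed to 1 row before the fit, H2A and H2B no longer passed the test. The H2A pair changed by -0.54 in the euploid (adjusted p = 0.503) and -0.79 in Chr12 (adjusted p = 0.343), and the H2B pair by -1.06 (adjusted p = 0.134) and -1.27 (adjusted p = 0.0872). The summed H4 pair was lower, at -2.40 (adjusted p = 0.0205) and -1.94 (adjusted p = 0.048). The summed H3 pair stood at -0.38 (adjusted p = 0.645) and 0.10 (adjusted p = 0.925).

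Both H4 genes were lower on day 4. HHF1 held 1279 and 2023 CPM in the euploid and 863 and 1799 CPM in Chr12 in log phase, against 289 and 446 CPM on euploid day 4 and 231 and 406 CPM on Chr12 day 4. HHF2 held 1226 and 1657 CPM in euploid log phase, 948 and 1599.57 CPM in Chr12 log phase, 158 and 277 CPM on euploid day 4 and 212 and 506 CPM on Chr12 day 4. For both genes every day 4 library was below every log phase library. In log phase replicate 2 was the higher library in both strains.

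HHF1 fell by 2.16 ± 0.59 on the log2 scale in the euploid (4.48-fold, adjusted p = 0.0287) and fell by 2.06 ± 0.59 in Chr12 (4.17-fold, adjusted p = 0.0382). HHF2 fell by 2.72 ± 0.62 in the euploid (6.58-fold, adjusted p = 0.0149). In Chr12 its value was -1.82 ± 0.60 with an adjusted p of 0.0631, so that it missed the threshold there. It passed with the replicate number as a block (-1.89, adjusted p = 0.0128), under DESeq2, without the highest position of each gene and with the second tables, and not in the other 5 settings run on all libraries. The strain difference in the HHF2 change was itself not called (0.89 ± 0.83, adjusted p = 0.999).

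Footprints of H4 and of some other core genes were concentrated. In the log phase libraries the highest single position carried 18.6% to 34.7% of HHF1 reads, at codon 59 each time. For HHF2 it carried 8.77% to 28.5%, and the first 20 codons carried 36.003% to 40.7% of HHF2 reads. The highest position reached 28.9% for HTB2, 24.4% for HHT1, 23.9% for HHT2 and 18.1% for HTA2 in log phase. On day 4 the highest position of HHF1 carried 5.34% to 11.7%, at codons 12, 19, 83 or 91. Of gene body reads, 67.98% to 72.1% of HHF1 and 60.5% to 70.7% of HHF2 were in the reading frame in log phase. In day 4 replicate 2 they were 42.4% and 38.2% (HHF1) and 34.2% and 36.4% (HHF2), euploid first. In day 4 replicate 1 they were 64.7% and 77.4% (HHF1) and 50% and 71.7% (HHF2). HTB2 in log phase stood at 40.9% and 29.1% in replicate 1 and 62.3% and 70.2% in replicate 2. Codons are less sure where this share is low. Its cause was not tested. Without the highest position of each gene HHF1 stood at -1.77 and -1.71 and remained called in both strains. With at most 1 read counted per position it stood at -0.47 in the euploid (adjusted p = 0.219) and -0.20 in Chr12 (adjusted p = 0.626), so that the HHF1 call was lost, and HHF2 stood at -0.95 and -0.23. The HHF1 call was lost in the euploid without either euploid log phase library, without euploid day 4 replicate 1 or without Chr12 day 4 replicate 1, and in Chr12 without any library except the 2 of euploid day 4. The HHF2 call in the euploid was lost without either euploid log phase library.

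Neither H3 gene passed the test. HHT1 held 691 and 708 CPM in euploid log phase, 473 and 544 CPM in Chr12 log phase, 334 and 766 CPM on euploid day 4 and 311 and 714 CPM on Chr12 day 4. HHT2 held 669 and 579, 549 and 463, 308 and 619.6, and 428 and 718 CPM in the same order. For both genes the deep day 4 libraries, replicate 2, were within or above the log phase range and the shallow ones below it, and the groups overlapped. The fitted changes of HHT1 were -0.34 ± 0.58 (95% interval -1.47 to 0.79) and 0.01 ± 0.58 (-1.12 to 1.14), and those of HHT2 were -0.42 ± 0.51 (-1.42 to 0.58) and 0.18 ± 0.51 (-0.82 to 1.18). The sign of each changed when 1 day 4 library was left out.

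The balance of copies within the H3 and H4 pairs did not pass the test. HHT1 took 51.5% ± 3.93 of the H3 footprints in log phase and 49.8% ± 5.63 on day 4 (n = 4 each, exact permutation p = 0.686). HHF1 took 51.7% ± 3.11 of the H4 footprints in log phase and 55.8% ± 9.19 on day 4 (n = 4 each, exact permutation p = 0.429, adjusted p = 0.536). On day 4 the HHF1 share was 64.7% and 61.6% in the euploid and 52.2% and 44.5% in Chr12. With 2 libraries a strain the smallest p is 0.333, and that strain difference was not tested.

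Per length, and with both copies summed, H4 led the histones in every log phase library, while on day 4 H3 led in 3 of 4 libraries and stood level with H2B in the fourth, at 1185 against 1188 CPM per kb in euploid replicate 1. The ratio of H4 to H3 footprints per kb of row was 2.25 and 3.49 in log phase euploid libraries, 2.16 and 4.12 in those of Chr12, 0.85 and 0.637 on euploid day 4 and 0.731 and 0.778 on Chr12 day 4. The ratio of H2B to H3 was 0.791 to 1.24 in log phase and 0.37 to 1.003 on day 4, so that those ranges overlapped. The 8 core genes together took 0.545% and 0.585% of all reads in euploid log phase and 0.399% and 0.446% in Chr12 log phase. On day 4 they took 0.272% (95% Wilson interval 0.251% to 0.295%) and 0.337% in the euploid and 0.245% (0.23% to 0.261%) and 0.388% in Chr12. After TMM scaling they summed to 6363 and 6666 CPM in euploid log phase, 4615 and 5959 CPM in Chr12 log phase, 2159.76 and 3376 CPM on euploid day 4 and 1756 and 3340.44 CPM on Chr12 day 4. On both scales all 4 day 4 libraries were below all 4 log phase libraries, narrowly so as a share of reads. On that scale the Wilson intervals of Chr12 day 4 replicate 2 (0.38% to 0.396%) and Chr12 log phase replicate 1 (0.391% to 0.407%) overlapped.

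**Figure D4:**
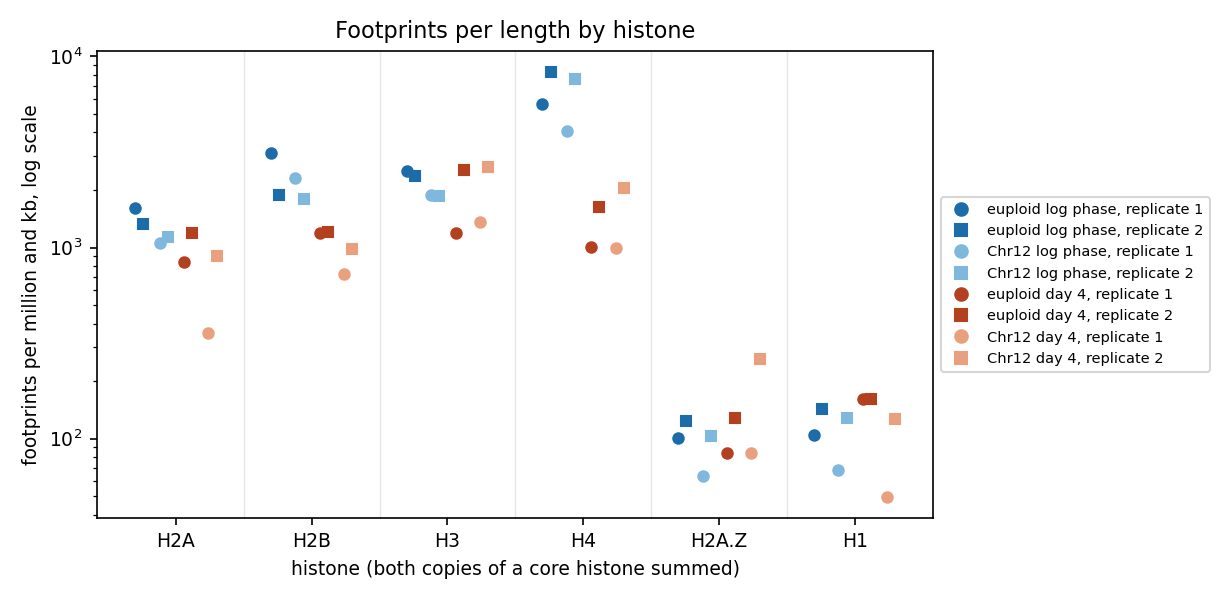
CPM per kb of row (log axis) of each histone, both copies of a core histone summed, in each library. H4 points lie from 4078 to 8289 in log phase and from 998 to 2054 on day 4, and H2A.Z and H1 stay between 49.7 and 261 throughout.

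The variant and linker genes had the fewest footprints in log phase. HTZ1 held 54.03 and 66.6 CPM in euploid log phase, 34.4 and 55.3 CPM in Chr12 log phase, 45.1 and 68.7 CPM on euploid day 4 and 45.2 and 140 CPM on Chr12 day 4. The last value, from 362 reads, was the highest of the 8, and the groups overlapped. HTZ1 changed by -0.05 ± 0.59 in the euploid (adjusted p = 0.96) and by 1.07 ± 0.59 in Chr12 (adjusted p = 0.243, 0.02 without Chr12 day 4 replicate 2). HHO1 held 94.8 and 129 CPM in euploid log phase, 62.4 and 116 CPM in Chr12 log phase, 146 and 147 CPM on euploid day 4 and 45.2 and 116 CPM on Chr12 day 4. Its changes, 0.39 ± 0.56 (adjusted p = 0.653) and -0.13 ± 0.56 (adjusted p = 0.909), did not pass the test. Both euploid day 4 libraries were above both euploid log phase libraries, and the Chr12 groups overlapped.

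Set against H2A, H2A.Z took a larger share on day 4. HTZ1 made up 5.86% and 8.5% of the footprints per nucleotide of HTA1, HTA2 and HTZ1 in euploid log phase and 5.71% and 8.32% in Chr12 log phase. On day 4 it made up 9.12% (exact interval 4.81% to 15.4%) and 9.73% in the euploid and 19.03% (12.7% to 26.8%) and 22.3% in Chr12. The mean over both strains went from 7.09% ± 1.52 to 15.1% ± 6.64 (n = 4 each, exact permutation p = 0.0286, adjusted p = 0.0476). The day 4 mean lay between the values of the 2 strains. Every day 4 library was above every log phase library, by little in the euploid. There the exact intervals of log phase replicate 2 (6.84% to 10.4%) and day 4 replicate 2 (8.87% to 10.6%) overlapped. The test no longer passed without any of the log phase libraries (exact p from 0.114 to 0.143), over the gene body alone (exact p = 0.0571) or with at most 1 read per position (exact p = 0.143).

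Of all tested genes, 18.4% had all 4 day 4 libraries below all 4 log phase libraries and 22.8% had all 4 above. HTA2, HTB2, HHF1 and HHF2 were among the former, no histone gene was among the latter, and 6 of 10 overlapped.

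Between the strains no histone gene was called, in log phase or on day 4, nor did the strain difference in the day 4 change reach the threshold for any. The share of all genes called was 0% in log phase, 0.069% on day 4 and 0% for the strain difference in the day 4 change. At an unadjusted p under 0.05, edgeR gave 0 of the 10 in each comparison, beside 106 of all genes in log phase, 501 on day 4 and 245 for the strain difference, and DESeq2 also called 0 of the 10. In log phase all 8 core genes had fitted values below 0 for Chr12 against euploid (median -0.30, all genes 0.00), from -0.18 for HHF2 to -0.55 ± 0.55 for HTA2. So did HTZ1 (-0.43 ± 0.59) and HHO1 (-0.33 ± 0.56), beside 50.1% of all tested genes. On day 4 the core median was -0.16 (all genes -0.09), with HTA2 at -1.09 ± 0.56, HHF2 at 0.72 ± 0.59, HTZ1 at 0.69 ± 0.60 and HHO1 at -0.84 ± 0.56. The core median on day 4 ran from -0.71 to 0.66 when single libraries were left out, so that its sign was not settled. In counts simulated for the euploid day 4 comparison, 16% of 100 genes with a true log2 change of 2 were called. A gene that was not called may thus still differ.

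The H3 genes carried many footprints over their last codons. The last 20 codons here include the stop codon, which follows codon 136. They held 24.8% and 33.1% of HHT1 reads in log phase euploid libraries and 23.9% and 36.6% in those of Chr12. On day 4 they held 31.5% and 46.5% in the euploid and 23.3% and 46.2% in Chr12. HHT2 held 30.8% to 37.7% there in log phase and 31.7% to 44.8% on day 4. Over other genes with a coding length of 300 to 450 nt and at least 50 reads (36 to 235 genes a library) the median was 9.64% to 18.6%, and from 77.95% to 95.5% of these genes were below the H3 genes. The 90th percentile of these genes was 39.5% to 41.6% in log phase, above both H3 genes. Among the other histone genes the share was 18.8% at most in log phase, while on day 4 it reached 40.1% for HTZ1 (Chr12 replicate 2), 35.7% for HHF2 (euploid replicate 1, 42 reads) and 32.8% for HHF1 (Chr12 replicate 1), so that other histone genes overlapped H3 there. In log phase the highest position of HHT1 and HHT2 lay at codon 134 or 135 in replicate 1 and at codon 38 in replicate 2 of both strains, so that footprint profiles differed by replicate number.

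**Figure D5:**
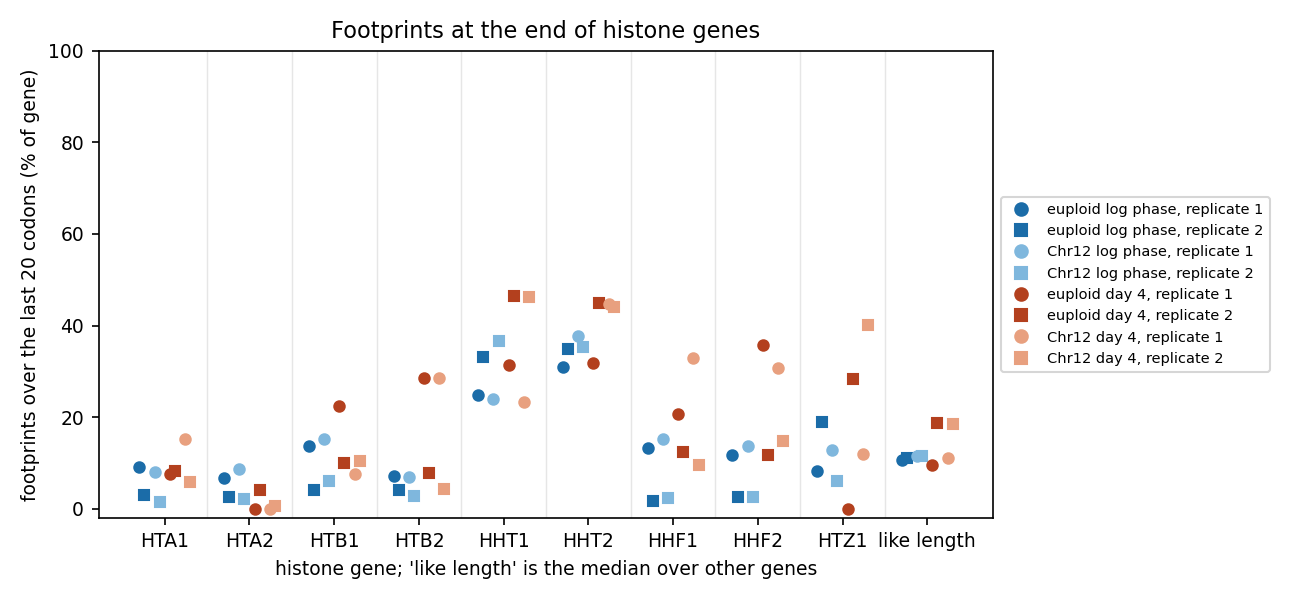
Share of each gene's footprints over its last 20 codons, stop codon included, in percent, in each library, beside the median over other genes of like coding length. HHT1 and HHT2 lie between 23.3% and 46.5% in all libraries, above the medians of 9.64% to 18.6%.

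Other genes of histone supply and S phase were read from lists. Each count called below stands beside the shares of all tested genes given above, 11.6% lower and 15.6% higher in the euploid and 9.67% lower and 13.2% higher in Chr12. Of 19 histone chaperones and regulators 1 was called in each strain, SPT10, an activator of histone gene transcription, at 3.899 ± 1.18 in the euploid (adjusted p = 0.0419) and 4.96 ± 1.23 in Chr12 (adjusted p = 0.0234). Its CPM were 20.4, 25.1, 30.0 and 20.2 in log phase and 37.6, 630 (euploid) and 392, 1177 (Chr12) on day 4. Without the highest position of each gene it stood at 0.81 (adjusted p = 0.448) and 2.04 (adjusted p = 0.0674), and without euploid day 4 replicate 2 at 0.38 in the euploid, so that the euploid value rested on 1 position and 1 library. In both strains the day 4 libraries were above all log phase libraries. The list's medians were -0.32 and -0.51.

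Of 13 SWR1 complex genes 1 was called higher in the euploid, VPS72, which binds H2A.Z (1.74 ± 0.51, adjusted p = 0.0375, 0.57 without euploid day 4 replicate 2), and 1 lower in Chr12, RVB2, an ATPase shared with other complexes (-1.80 ± 0.51, adjusted p = 0.0374). Their calls were not shared by the other strain, where VPS72 stood at 1.24 and RVB2 at -1.49 with adjusted p of 0.118 and 0.0633. The list medians were 0.16 and -0.34.

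Of 27 DNA replication genes 5 were called lower and 1 higher in the euploid, and 3 were called lower and 0 higher in Chr12, where the share called lower was near that of all tested genes. POL30, which encodes the sliding clamp PCNA, held 179, 202, 176 and 235 CPM in log phase and 26.3, 58.6, 39.8 and 46.5 CPM on day 4. It fell by 2.09 ± 0.50 in the euploid (adjusted p = 0.0176) and fell by 2.25 ± 0.50 in Chr12 (adjusted p = 0.0166), and its groups did not overlap. RFC3, a clamp loader subunit, fell by 1.53 ± 0.45 (adjusted p = 0.0395) and fell by 1.87 ± 0.45 (adjusted p = 0.0225). CDC6, which loads the replicative helicase, fell in the euploid (-2.34 ± 0.68, adjusted p = 0.0365) and stood at -0.47 ± 0.62 in Chr12 (adjusted p = 0.651), with 2 reads in the lowest library. RNR2, a ribonucleotide reductase subunit, rose in the euploid (2.55 ± 0.78, adjusted p = 0.0445, 0.41 without euploid day 4 replicate 2) and stood at 2.31 ± 0.77 in Chr12 (adjusted p = 0.0664). The list medians were -0.76 and -0.60, with 21 and 19 of the 27 genes below 0, beside 41.3% and 43.2% of all tested genes. Of 17 cyclin and cell cycle control genes edgeR called none in either strain, with 2 and 3 at an unadjusted p under 0.05. Each of these named calls was lost without one or more single libraries.

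Over the 8 libraries, log2 CPM of HHF1 and HHF2 correlated at 0.96, HTB2 with HHF2 at 0.94 and HTA2 with HTB2 at 0.92 (Pearson's r), and HTA1 with HTB1 at 0.49. Phase, depth and replicate number are shared by all genes of a library, so these are descriptions. Among 2684 genes with at least 10 reads in every library, the summed core histones were most like TOM22 (r = 0.98), HEK2, STT3, RVB2 and TIF1. HTZ1 was most like SSO1 (r = 0.94), CYT1 and COX9, and HHO1 was most like DID2 (r = 0.94), AIM21 and RHO1.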

How the data were processed

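Ribosome-protected fragments were sequenced from 8 libraries. Per the study's methods the authors trimmed reads with CutAdapt, removed reads from noncoding RNA and mapped those left with bowtie2 to a YPS1009 assembly. The deposited tables hold raw counts of read 5′ ends at each nucleotide, from 72 nt before the ATG to about 60 nt after the stop codon, not normalized and not pooled. No removal of duplicate reads is described, so repeated copies of a molecule count separately. The Wilson and exact intervals cover counting error only. Replicate 1 of each group has a second table whose making is not given in the sources used here. It served as an alternative.

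Counts were summed over all positions of a row. The 4 rows with no systematic name held at most 0.0222% of a library's reads and were left out. Names came from the RefSeq R64 gene table (5821 of 6532 rows matched), and no coordinates of that build were used. edgeR 4.0.16 under R 4.3.3 fitted 4 group means over all 8 libraries (TMM, filterByExpr, glmQLFit and glmQLFTest, Benjamini-Hochberg at 0.05). SE is the log2 fold change over the square root of F. Intervals of fitted changes are 1.96 SE to each side, narrower than a 95% interval with so few libraries. The common biological coefficient of variation was 0.551. Copy shares used reads per nucleotide of row and an exact permutation test (scipy 1.17.1). Codons were assigned with a P site offset of 12 nt from the 5′ end of a read. Gene bodies exclude the first and last 20 codons, with the stop codon counted among the last 20. The scripts were tested on counts simulated for the euploid day 4 comparison. Calls reached 16% of 100 genes with a true log2 change of 2, 89% of 100 at -4 and 0.0918% of 5448 at 0. Alternatives were DESeq2 1.42.0, RLE size factors, other filters, gene body or coding sequence only, 1 read at most per position, each gene without its highest position, copies summed, the second tables, the replicate block and each library left out. The members and the gene lists were chosen with earlier results of these data known. Named list genes are the 3 with the largest change among those called, per list and direction, and genes most like the histones were ranked by Pearson's r.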

Additional observations from a re-analysis of the deposited data

How the results depend on the processing

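The limits are the 2 libraries a group, the 211302 and 396306 reads of the day 4 replicate 1 libraries, and the relative scale. The count of histone genes called lower on day 4 was 4 in the euploid and 3 in Chr12. With at least 50 reads required in every library 5 histone genes were left, HTB2, HTA2 and HHF2 not among them, and 1 was called in each strain. With copies summed 1 of 6 rows was called in each. Leaving out single libraries gave 1 to 4 in the euploid, with 1 without either euploid log phase library and 2 without euploid day 4 replicate 1, and 0 to 4 in Chr12, with 0 without either Chr12 log phase library or without Chr12 day 4 replicate 1. In those settings calls over all genes went from 1575 to 680 and 633 without the euploid log phase libraries and to 1785 without euploid day 4 replicate 1, and from 1327 to 462 and 62 without the Chr12 log phase libraries and 431 without Chr12 day 4 replicate 1. Under RLE size factors, no filter, DESeq2, the gene body, the coding sequence, the second tables and without highest positions the counts were 4 in the euploid and 3 or 4 in Chr12, and with 1 read per position they were 3 and 2. The other comparisons had 0 histone genes called in every setting. Over all genes DESeq2 called 95 between strains on day 4 (edgeR 4), 36 for the strain difference (edgeR 0) and 1 in log phase (edgeR 0).

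The core median went from -1.29 to -0.28 (50 reads, over only the 5 core genes left) and -0.38 (1 read per position) in the euploid. In Chr12 it went from -1.15 to 0.15 (over the same 5 genes) and -0.13. Without single libraries it ran from -2.01 to -1.01 and from -1.62 to -0.82. For Chr12 against euploid on day 4 it was -0.0226 over the gene body, 0.10 with 1 read per position, -0.26 with the second tables and -0.71 to 0.66 without single libraries. For the strain difference it went from 0.23 to 0.40 over the gene body, -0.00916 with the second tables and -0.37 to 1.06 without single libraries. The day 4 minus log phase difference in the HHT1 share, -1.73 points, turned to 0.97 with 1 read per position, 0.49 with the second tables and ran from -3.55 to 0.86 without single libraries. That of the HTZ1 share, 7.96 points, was 7.18 over the gene body and 6.03 with 1 read per position, and 5.53 to 9.93 without single libraries. The difference in the HTA1 share, 38.6 points, was 42.2 over the gene body, 23.7 with 1 read per position and 36.4 to 40.2 without single libraries. That of HTB1, 40.7 points, was 46.5, 30.9 and 39.4 to 42.6. The adjusted p of both was 0.0714 over the gene body, with 1 read per position and without any log phase library, and 0.0476 otherwise.

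Values near 0 changed sign. In the euploid HTB1 turned to 0.17 with 1 read per position and 0.0747 with the second tables, and HTZ1 to 0.12 with the second tables. In Chr12 HTA1 turned to -0.0816 with RLE size factors, -0.0779 with DESeq2, -0.0685 with 1 read per position and -0.23 with the second tables, HTB1 to 0.0889 with 1 read per position, and HHT2 to -0.0334 over the gene body. HHT1 turned there to -0.15 with RLE size factors, -0.15 with DESeq2, -0.35 over the gene body, -0.0165 over the coding sequence, -0.013 without the highest position and -0.10 with the second tables. Without single libraries the euploid ranges were -0.28 to 0.66 for HTA1, -0.49 to 0.15 for HTB1, -1.41 to 0.15 for HHT1, -1.37 to 0.00496 for HHT2 and -0.77 to 0.20 for HTZ1. The Chr12 ranges were -0.72 to 0.59 for HTA1, -0.71 to 0.50 for HHT1, -0.24 to 0.51 for HHT2, -0.98 to 0.40 for HHO1 and -1.40 to 0.23 for CDC6. Between strains on day 4 they were -0.0563 to 1.48 for HHF2 and -0.37 to 1.38 for HTZ1. The causes were not tested.

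Replicate numbers are shared by the groups, and the study's methods compare footprint peaks of aneuploid and euploid samples paired by replicate, but the labels do not tie a number to a batch and there are only 2 pairs per phase. With the replicate block, 4 histone genes were called in the euploid and 4 in Chr12, where HHF2 passed at -1.89 (adjusted p = 0.0128), HTA1 stood at -0.0197 and HHT1 at -0.10. In the euploid RVB2 passed (-1.57, adjusted p = 0.0202) and RNR2 missed the threshold (2.29, adjusted p = 0.05001). Calls over all genes rose from 1575 to 1928 and from 1327 to 1699. Deviations of same-numbered libraries from their group means correlated over genes at 0.69 between the log phase groups, 0.60 between the day 4 groups and 0.16 to 0.38 between phases.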
